A study of Mus musculus with 18 samples.

Results

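The resting wild-type (WT) mast cell was described from 3 arrays of RNA from unstimulated bone marrow-derived mast cells (BMMCs), out of 18 mast cell arrays in the series. The WT mice were C57BL/6J and 4 to 6 weeks old. Mast cells of this kind are obtained by culturing bone marrow until granulated cells with the IgE receptor and Kit predominate. The labels name no stimulus, medium or culture time for these 3 arrays, and do not say whether the 3 RNA samples came from separate mice or cultures, so the spread between them may be technical. The group was taken by its label, WT, unstimulated, replicates 1 to 3. The other 15 arrays, with activated cells or cells of the other genotype, entered the normalization only where their probe set was complete, and no contrast with them was made.

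Mast cells are resident immune cells that bind IgE through the high-affinity receptor FcεRI and need the growth factor receptor Kit to survive. Their cytoplasm is filled with secretory granules, in which serine proteases, a carboxypeptidase, histamine and serotonin are packed on the sulphated chains of the proteoglycan serglycin. On activation they release the granules, make leukotrienes and prostaglandins from membrane lipid, and transcribe cytokine genes. The question here was which parts of that equipment gave an RNA signal in cells that had not been activated.

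The arrays carried 45281 probes, of which 34885 were paired with 1 gene symbol, giving 19057 named genes. Values are levels, on a log2 scale after background correction and quantile normalization, of the brightest probe of each gene, given for replicates 1, 2 and 3 in that order or as mean ± SD over the 3 arrays (n = 3). A gene was called detected where the detection p-value that the authors deposited with each probe was under 0.05 on 3 of 3 arrays, undetected where no probe of it was detected on any of the 3, and partly detected otherwise. By this rule 8353 genes, 43.8% of the named genes, were detected, 2434 (12.8%) were partly detected and 8270 (43.4%) were undetected. The median level was 7.95 for detected genes, 4.59 for partly detected genes and 4.33 for undetected genes. The lowest detected level was 4.67 and the highest undetected level 4.62, so the floor of the scale lay at about that level.

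A rank by level is a rank of probe signal and not of transcript number. Among 3050 genes with at least 2 detected probes, the probes of 1 gene spanned a median of 1.71 log2 units, and the 90th percentile of that span was 4.47. The median SD between arrays was 0.21 for detected genes, so neighbouring ranks are not distinguishable. "Undetected" describes the probe as well as the gene: of the 9172 genes with several probes, 2569 (28%) had 1 probe detected on all 3 arrays beside another detected on none.

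Replicate 3 stood apart from replicates 1 and 2. Across all named genes the levels of replicates 1 and 2 correlated at r = 0.996, whereas replicate 3 correlated at 0.977 with each of them. The median SD between replicates 1 and 2 alone was 0.110 for detected genes. Most named genes that were over 2-fold apart on replicate 3 are given array by array. The largest differences are described after the markers of other cell types. Median intensity before normalization was 95.1, 92.5 and 86.4, with 36.8%, 37.2% and 38.6% of probes detected, and the number of arrays limits the precision of every value.

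All 6 marker genes of the mast cell were detected on 3 of 3 arrays, and they had a median percentile of 99.8 among the named genes. Carboxypeptidase A3 (Cpa3), a granule exopeptidase that cuts the ends of peptides, lay at 14.88, 14.87 and 14.87. Fcer1a, the IgE-binding chain of FcεRI, lay at 14.83, 14.84 and 14.66. Kit, the receptor tyrosine kinase for stem cell factor, lay at 14.05, 14.13 and 14.25. These genes ranked 9th, 12th and 42nd of all named genes and hardly differed between the arrays. The transcription factor Gata2, which mast cell progenitors need, lay at 13.94, 13.91 and 13.81. The other receptor chain, Ms4a2, lay at 11.88, 12.10 and 11.55, and Hdc, the enzyme that makes histamine from histidine, lay at 11.48, 11.40 and 10.98. Both gave a lower signal than the first 4 and were lowest on replicate 3. The 3 probes of Kit had mean levels of 14.14, 10.34 and 5.44, a range of 8.7 that was the widest among all listed genes, so its rank depends on the probe taken. Hdc likewise had probes at 11.28 and 8.67.

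**Figure D1:**
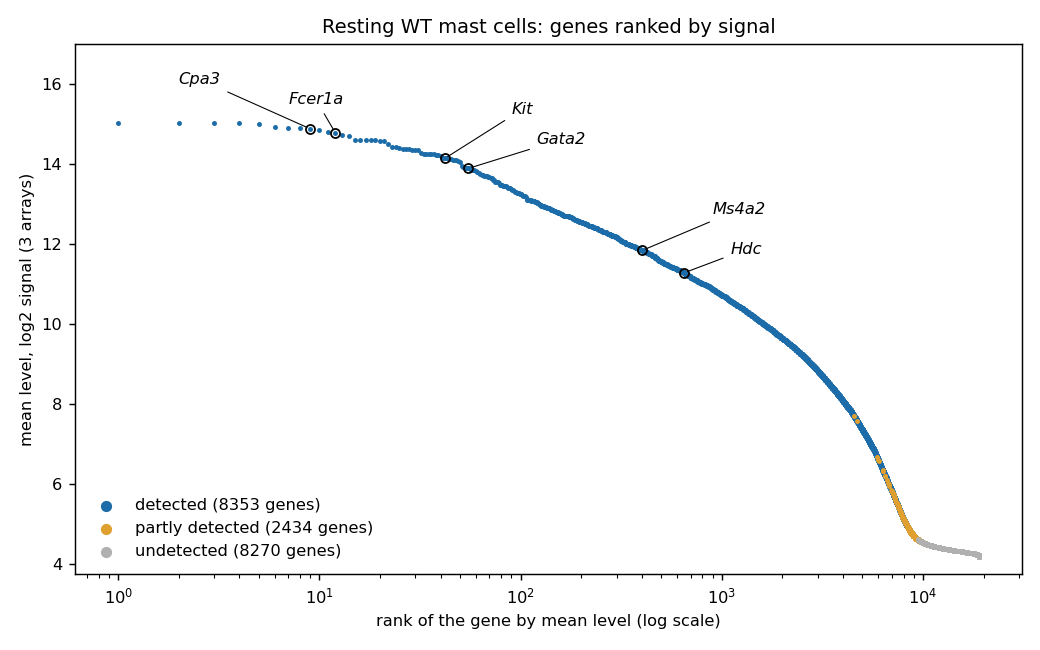
Mean level of each of the 19057 named genes (y axis, log2 signal, mean of 3 arrays) against its rank (x axis, log scale), coloured by detection class; the 6 markers are circled. Cpa3, Fcer1a, Kit and Gata2 lie among the 100 brightest genes, at 13.89 to 14.88, and Ms4a2 and Hdc lower on the slope, at 11.84 and 11.28.

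The promoters of 4 markers are shown because 3 of them hold short motifs of the factors known for this lineage. The 4th, Gata2 itself, holds none in the window used and is rich in CpG. The sequences are from RefSeq (GRCm38.p6), 300 bases each, from 250 bases before to 50 bases after the transcript start, 5′ to 3′ in the direction of the gene. Capitals mark GATAA or its reverse complement TTATC, the core bound by GATA factors, and TATAAA or its reverse complement TTTATA, the TATA box. The Cpa3 window is at chr3:20242132-20242431 on the minus strand, that of Fcer1a at chr1:173227180-173227479 on the minus strand, that of Ms4a2 at chr19:11623670-11623969 on the minus strand and that of Gata2 at chr6:88193641-88193940 on the plus strand.
Cpa3: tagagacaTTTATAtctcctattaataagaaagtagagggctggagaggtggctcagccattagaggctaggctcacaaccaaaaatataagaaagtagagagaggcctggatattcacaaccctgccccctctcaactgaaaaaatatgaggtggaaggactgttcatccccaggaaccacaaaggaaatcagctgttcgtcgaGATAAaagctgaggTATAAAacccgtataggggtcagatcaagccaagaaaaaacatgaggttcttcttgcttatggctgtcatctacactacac
Fcer1a: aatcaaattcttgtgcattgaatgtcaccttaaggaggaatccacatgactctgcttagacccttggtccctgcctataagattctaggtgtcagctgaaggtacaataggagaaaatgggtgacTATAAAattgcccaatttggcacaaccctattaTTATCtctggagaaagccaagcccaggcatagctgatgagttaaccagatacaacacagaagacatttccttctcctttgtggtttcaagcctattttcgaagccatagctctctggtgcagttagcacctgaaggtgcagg
Ms4a2: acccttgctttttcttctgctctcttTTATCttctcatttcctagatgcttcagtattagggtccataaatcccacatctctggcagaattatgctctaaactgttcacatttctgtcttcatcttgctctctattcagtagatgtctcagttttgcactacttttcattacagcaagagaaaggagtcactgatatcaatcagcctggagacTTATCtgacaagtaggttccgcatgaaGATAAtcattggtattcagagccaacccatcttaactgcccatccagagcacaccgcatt
Gata2: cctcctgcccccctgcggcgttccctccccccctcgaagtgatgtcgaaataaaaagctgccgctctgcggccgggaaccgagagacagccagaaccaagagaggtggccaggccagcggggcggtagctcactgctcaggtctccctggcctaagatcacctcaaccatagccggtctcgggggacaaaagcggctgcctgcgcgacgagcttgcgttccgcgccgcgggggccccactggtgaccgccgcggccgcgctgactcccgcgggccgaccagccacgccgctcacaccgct
Cpa3 held 1 GATA core, 2 TATA matches and 3 CpG, and Fcer1a held 1 of each motif and 1 CpG. Ms4a2 held 3 GATA cores, no TATA match and 2 CpG. Gata2 held neither motif and 32 CpG. RefSeq gave 2 promoters for Gata2 and 2 for Kit, and the counts here describe only 1 of them for each gene. The remaining markers, Kit and Hdc, held neither motif in this window, so 3 of 6 markers had a GATA core and 2 of 6 a TATA match, against 21.8% and 12.5% of the promoters of all named genes. The GATA core was found more often in promoters of undetected genes (28.4%) than in those of the brightest 10% of genes (18.2%). A match is a run of letters and not a measured binding site.

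The brightest signals came from translation, iron storage and granule genes. Of the 30 brightest genes 13 encode ribosomal proteins, and ribosomal protein genes as a group had 52 of 61 members detected at a median percentile of 99.5. Rpl41, a protein of the large ribosomal subunit, ranked 1st at 14.94, 15.08 and 15.08. The chymase Cma1 ranked 2nd at 15.01, 15.05 and 15.03, and the interferon-inducible membrane protein Ifitm1 ranked 3rd at 15.13, 14.93 and 15.01. These 3 genes cannot be ordered, since their values on the 3 arrays overlap. Fth1, the heavy chain of the iron store ferritin, lay at 14.92, 14.96 and 15.13, and Ftl1, its light chain, at 14.43, 14.46 and 14.62. The lysosomal membrane protein Laptm5 averaged 14.92 ± 0.13, the prion protein Prnp 14.91 ± 0.31 and the membrane protein Itm2b 14.89 ± 0.09. Eef1a1, the elongation factor that brings aminoacyl-tRNA to the ribosome, averaged 14.84 ± 0.08. Scin, an actin-severing protein linked to exocytosis, averaged 14.59 ± 0.08, and Gpx1, a glutathione peroxidase, 14.41 ± 0.12. The tetraspanin Cd63, a protein of lysosome and granule membranes, and the tryptase Tpsb2 also stood among the 30 brightest. The 10 brightest genes held 4.22% ± 0.081 of the summed signal of all named genes, the 100 brightest 23.8% ± 0.1 and the 1000 brightest 65.6% ± 0.25 (SD, n = 3). The detection p-value was 0 on all 3 arrays for 6942 genes.

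Granule genes were detected more often than named genes as a whole, with 107 of 146 listed members (73.3%) detected on 3 of 3 arrays against 43.8% of all named genes. This was not particular to granule genes: over all listed genes the share was 64%. It was 72.9% for signalling, 80.6% for metabolic, 55.3% for receptor and 38.7% for mediator genes. Among the granule proteases 9 of 18 named members were detected, 1 was partly detected and 8 were undetected, against 43.4% undetected among all named genes. Cma1, the chymase also called mast cell protease 5, and Cpa3, given above, hardly differed between the arrays. Tpsb2, the tryptase known as mast cell protease 6, lay at 14.54, 14.78 and 14.46, although a second Tpsb2 probe was undetected. These 3 proteases lay within the 20 brightest genes.

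The other detected proteases differed between the arrays by more than any difference seen for the markers. Mcpt4, the chymase known from connective tissue mast cells, lay at 13.74 on replicate 3, against 7.71 and 6.98 on replicates 1 and 2. Cma2, another member of the chymase family, lay at 14.50 on replicate 3, against 9.39 and 9.12 on replicates 1 and 2, and Ctsg, cathepsin G, at 12.84 on replicate 3, against 6.82 and 6.64 on replicates 1 and 2. All 3 were thus bright on replicate 3 and of middling or low signal on the other 2 arrays. Tpsab1, mast cell protease 7, lay at 9.94 on replicate 3, against 7.18 and 7.04 on replicates 1 and 2, and Mcpt8, a protease best known from basophils, at 9.16 on replicate 3, against 6.40 and 6.01 on replicates 1 and 2. Prss34, a tryptase also known from basophils, ran the other way, at 6.59 on replicate 3, against 9.95 and 10.22 on replicates 1 and 2. The median difference of the 9 detected proteases on replicate 3 from the mean of replicates 1 and 2 was 2.84 log2 units, against -0.06 for all detected genes. All 9 were still detected when replicate 3 was left out. The undetected members were Mcpt1 and Mcpt2, chymases of mucosal mast cells, Mcpt9, and the granzymes Gzmb, Gzmc, Gzme, Gzmf and Gzmg. Chymase and granzyme genes lie in clusters of close paralogues, so the assignment of a probe's signal to a single member is uncertain.

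**Figure D2:**
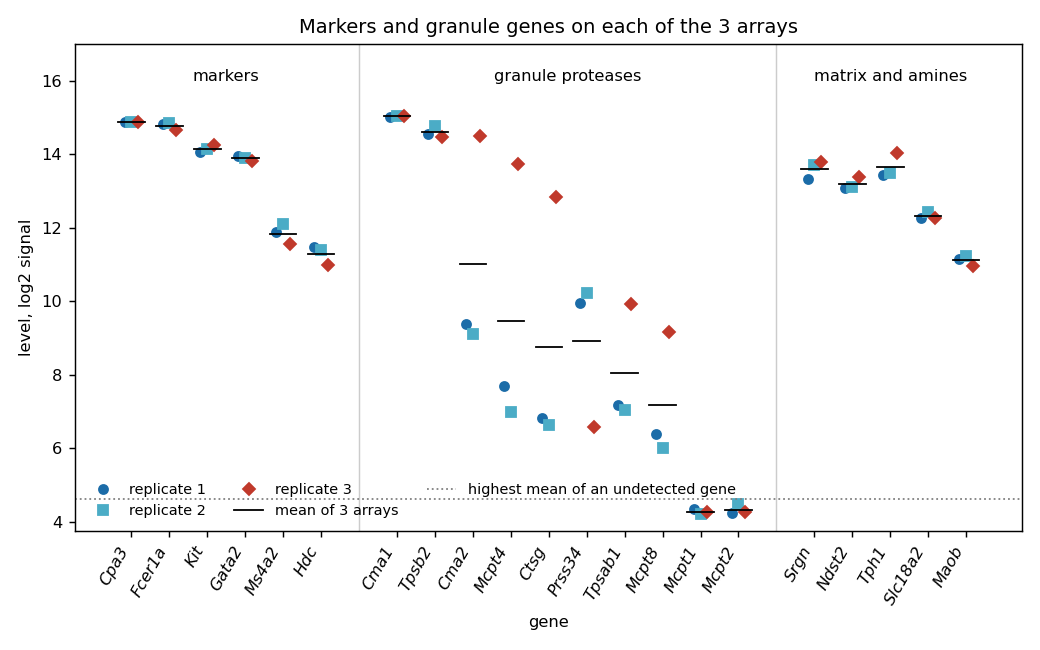
Level (y axis, log2 signal) on replicates 1, 2 and 3 of the 6 markers, 10 proteases and 5 genes of the granule matrix and amines; bars are means of 3 arrays and the dotted line is the highest mean of an undetected gene, 4.62. Mcpt4, Cma2, Ctsg, Tpsab1 and Mcpt8 lie higher on replicate 3 and Prss34 lower, while Cma1, Tpsb2, the markers and the matrix and amine genes lie close together.

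Genes that activate or restrain granule proteases were detected for 8 of 14 members (57.1%), against 43.8% of all named genes. Cst3 and Cstb, inhibitors of cysteine proteases, averaged 13.46 ± 0.22 and 12.69 ± 0.10. Ctsc, the dipeptidyl peptidase that activates granule serine proteases, lay at 11.11, 11.15 and 11.12, with no separation of the arrays. Slpi, an inhibitor of leukocyte serine proteases, lay at 12.72 on replicate 3, against 11.40 and 11.67 on replicates 1 and 2, and Serpina3f, a serine protease inhibitor, at 10.31 on replicate 3, against 7.72 and 8.01 on replicates 1 and 2. Both were over 2-fold higher on replicate 3. The cathepsin genes Ctsl and Ctss were undetected.

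Of 24 genes that build the granule matrix 19 (79.2%) were detected, 3 partly detected and 2 undetected. The share detected was 43.8% for all named genes and 64% for all listed genes. Srgn, the serglycin core protein, lay at 13.32, 13.70 and 13.79. Ndst2, the sulphotransferase that heparin synthesis in mast cells needs, lay at 13.09, 13.11 and 13.38, and Papss2, which makes the sulphate donor, at 13.03, 13.05 and 13.07. Arrays hardly differed for these genes, with Srgn lowest on replicate 1. Hs3st1, a heparan sulphate 3-O-sulphotransferase, averaged 12.13 ± 0.20, and Chst15, which adds the disulphated unit of chondroitin sulphate E, averaged 10.36 ± 0.23. The xylosyltransferase Xylt2, which starts the chains, was the dimmest detected member, at 5.54 ± 0.37.

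Of the 12 amine genes 6 (50%) were detected and 5 were undetected, close to the 43.8% and 43.4% of all named genes. Tph1, the first enzyme of serotonin synthesis outside the brain, lay at 13.44, 13.48 and 14.04, brightest on replicate 3. Slc18a2, the transporter that loads histamine and serotonin into granules, lay at 12.28, 12.44 and 12.26. Maob, which breaks amines down, averaged 11.12 ± 0.13, and Ddc, the second enzyme of serotonin synthesis, 8.29 ± 0.39. The serotonin reuptake transporter Slc6a4 was dim, at 6.52 ± 0.30. The paralogues Slc18a1 and Maoa were undetected, as were the histamine-degrading enzymes Hnmt and Aoc1. Hnmt was detected on 0 and Maoa on 0 of the 17 complete arrays of the series, each through 1 probe.

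Lysosomal membrane genes were detected for 17 of 18 members (94.4%) and lysosomal hydrolases for 25 of 29 (86.2%), against 43.8% of all named genes. Cd63 averaged 14.60 ± 0.07, Lamp2 12.53 ± 0.18 and Lamp1 11.75 ± 0.20, all proteins of the lysosome and granule membrane. The tetraspanin Cd81 lay at 13.64 on replicate 3, against 12.42 and 12.39 on replicates 1 and 2, over 2-fold higher on replicate 3. Among the hydrolases Man2b1, lysosomal alpha-mannosidase, was brightest at 13.65, 13.79 and 14.22. The cysteine protease Ctsb averaged 12.22 ± 0.09, the iduronate sulphatase Ids 12.17 ± 0.33 and Psap, the precursor of the saposins, 11.70 ± 0.08. Gla and Acp5 were undetected.

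Genes of granule fusion were detected for 23 of 31 members (74.2%), against 43.8% of all named genes. Fusion of granules with the plasma membrane uses paired SNARE proteins, of which Snap23 averaged 11.83 ± 0.14, Vamp8 11.15 ± 0.18 and Stx3 10.55 ± 0.20. Stxbp2, the Munc18 protein that binds syntaxins in blood cells, averaged 12.07 ± 0.12. The forms best known from neurons, Snap25, Syt2, Cplx2, Doc2a and Doc2b, were undetected, as were Syt3 and Sytl4. Sytl2, a Rab27-binding protein described here because it was the member over 2-fold lower on replicate 3, and so chosen after its values were seen, lay at 8.88 on replicate 3, against 10.59 and 10.57 on replicates 1 and 2.

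Against 43.8% of all named genes, receptor genes as a whole were detected for 114 of 206 members (55.3%). All 3 chains of the IgE receptor were among them, and the signalling chain Fcer1g, shared with other Fc receptors, lay at 14.33, 14.04 and 14.09. Of 40 growth factor and cytokine receptor genes 28 were detected and 8 were undetected. Among the 28 detected, 5 were over 2-fold higher on replicate 3 and 2 lower, against 4.2% and 3.97% of all detected genes. The TGF-beta receptor genes Tgfbr1 and Tgfbr2 lay at 13.63, 13.62 and 13.36 and at 12.06, 11.91 and 12.33. Csf2rb2, the mouse-specific beta chain of the IL-3 receptor, lay at 13.13, 13.16 and 12.66. Il10ra, the IL-10 receptor chain, averaged 10.44 ± 0.26, and Il27ra 9.72 ± 0.05. The common beta chain Csf2rb was dimmer, at 9.02, 9.34 and 9.08, and the IL-3 receptor alpha chain Il3ra lay at 9.83 on replicate 3, against 8.26 and 8.24 on replicates 1 and 2; both were chosen after their values were seen. The dimmest detected receptors were Csf1r at 5.02 ± 0.20, Il6st at 4.99 ± 0.16 and Il1rap at 4.99 ± 0.26. Il9r, Il13ra1, Il21r, Ifnar1, Tnfrsf1a, Csf3r, Flt3 and Lifr were undetected. Ifnar1 and Tnfrsf1a, receptors for type I interferon and TNF that most cells use, were detected on 1 and 0 of the 17 complete arrays, through 1 and 3 probes.

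Inhibitory and paired receptors were detected for 19 of 28 members (67.9%), against 43.8% of all named genes. Cd47, the ligand that binds Sirpa, lay at 12.15, 12.18 and 13.05, and Sirpa itself at 11.78, 11.58 and 11.91. The Ig-like receptors Lilr4b and Lilrb4a averaged 12.29 ± 0.09 and 11.72 ± 0.17. These genes are close paralogues, and whether their probes tell them apart was not tested. Cd300a averaged 10.08 ± 0.36 and Cd84 9.94 ± 0.12. The inhibitory IgG receptor Fcgr2b lay at 9.85, 9.83 and 9.47, whereas the activating Fcgr3, chosen like Fcgr2b after its values were seen, lay at 7.78 on replicate 3, against 9.68 and 9.75 on replicates 1 and 2. The sialic acid-binding receptors Siglece, Siglecg and Siglech, the lectin Clec12a, and Cd5 were undetected.

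G protein-coupled receptors were detected for 21 of 50 members (42% of the list), close to the 43.8% of all named genes, with 11 partly detected and 18 undetected. The thrombin receptor F2r was the brightest at 14.38, 14.37 and 14.02. P2ry14, a receptor for UDP-glucose, lay at 13.19, 12.98 and 13.11. Mrgprb2, the mouse receptor for basic secretagogues that is known from connective tissue mast cells, lay at 10.08 on replicate 3, against 11.74 and 12.11 on replicates 1 and 2. It was the 1 detected receptor of this list that was over 2-fold lower on replicate 3. The adenosine receptor Adora3 averaged 10.86 ± 0.22, and the receptors Gpr171 and Gpr34 10.74 ± 0.32 and 10.23 ± 0.22. The histamine receptor Hrh2, at 5.50 ± 0.18, and the chemokine receptor Ccr7, at 4.70 ± 0.04, were near the floor. The complement receptors C3ar1 and C5ar1, the sphingosine phosphate receptors S1pr1 and S1pr3, the prostaglandin receptors Ptger2 and Ptgdr2, the histamine receptor Hrh1 and Mrgprb1 were undetected.

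Ion channel genes were detected for 14 of 26 members (53.8%), against 43.8% of all named genes. The ATP-gated channels P2rx4 and P2rx1 averaged 11.90 ± 0.11 and 10.19 ± 0.07. Itpr2, which releases calcium from the endoplasmic reticulum, averaged 10.72 ± 0.09, and the calcium-activated potassium channel Kcnn4 lay at 9.81, 9.89 and 8.81. Hvcn1, a proton channel, averaged 9.11 ± 0.29. P2rx7, another ATP-gated channel, averaged 8.09 ± 0.19, and the calcium store sensor Stim2 6.87 ± 0.05. P2rx3, Trpv4 and Orai2 were undetected.

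Toll-like and innate receptor genes were detected for 14 of 30 members (46.7%), close to the 43.8% of all named genes. The adaptor Myd88 was the brightest at 11.69, 11.53 and 11.49, with the signalling proteins Irak1 and Irak3 at 8.98 ± 0.30 and 9.46 ± 0.51. Irak2, another of these proteins, lay at 10.11 on replicate 3, against 9.04 and 9.06 on replicates 1 and 2. Ly96, the lipopolysaccharide-binding partner of Tlr4, lay at 10.55 on replicate 3, against 9.30 and 9.31 on replicates 1 and 2. Tlr4 itself lay at 8.17 ± 0.27. Tlr2 was near the floor at 5.33 ± 0.37, and Tlr3, Tlr5, Tlr7, Tlr8, Tlr9, Clec7a, Nlrp3 and Mefv were undetected. Of the adhesion genes 15 of 29 (51.7%) were detected, against 43.8% of all named genes. The integrin chain Itgb7 lay at 11.50, 11.48 and 12.38, the selectin ligand Selplg at 10.76, 10.71 and 11.87 and the stem cell and mast cell antigen Cd34 at 9.43, 9.19 and 9.97; all 3 were highest on replicate 3. Itga2b, an integrin chain best known from platelets, lay at 12.34, 12.47 and 11.22. Itga1, Itga2, Itgam, Itgax and Vcam1 were undetected.

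Signalling genes were detected for 175 of 240 members (72.9%), against 43.8% of all named genes. The IgE receptor signals through Src-family kinases, Syk and membrane adaptors, and 29 of 37 genes at this level were detected. Lat2, the adaptor also called NTAL, lay at 14.03, 13.87 and 13.84. The protein kinase C gene Prkcb lay at 13.02, 13.14 and 12.59 and Prkca averaged 11.74 ± 0.11. Btk, a Tec-family kinase, lay at 12.56, 12.70 and 12.52, and Csk, which restrains Src-family kinases, at 12.21, 12.42 and 12.42. The arrays were close together for all of these. Syk itself, chosen after its values were seen, gave a dim signal through 1 probe, at 5.56, 5.26 and 5.65. The adaptor Lat, likewise chosen after its values were seen, lay at 10.31 on replicate 3, against 11.25 and 11.37 on replicates 1 and 2. Gab2, the kinase Fyn and the adaptor Grb2, which have known roles in this pathway, were the dimmest detected members at 5.21 ± 0.12, 5.04 ± 0.25 and 4.75 ± 0.04. Fgr, Zap70, Vav3, Plcg1, Sos1, Cbl and Sla2 were undetected.

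Phosphoinositide signalling genes were detected for 22 of 27 members (81.5%), against 43.8% of all named genes. Inpp5d, the lipid phosphatase SHIP-1 that limits degranulation, lay at 10.91, 10.69 and 10.80, and Dapp1, an adaptor that binds phosphoinositides, at 10.94, 10.71 and 10.84. The phosphoinositide 3-kinase subunits Pik3cg and Pik3cd averaged 10.10 ± 0.23 and 9.65 ± 0.47. Pik3r5, Inpp4a, Akt1, Akt2 and Pip5k1c were undetected. Akt1 was detected on 4 and Akt2 on 0 of the 17 complete arrays, through 1 and 2 probes.

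Of the negative regulators 32 of 40 (80%) were detected, against 43.8% of all named genes. Among the 32 detected, 5 were over 2-fold higher on replicate 3 and 0 lower, against 4.2% and 3.97% of all detected genes. Dok3, an adaptor that restrains immune receptors, averaged 12.35 ± 0.24. Cish, a STAT5-induced inhibitor of cytokine signalling, lay at 11.74, 11.87 and 12.27, and Rgs10, which shortens G protein signals, at 11.57, 11.47 and 11.66. The tyrosine phosphatase Ptpn6, SHP-1, lay at 10.88, 10.85 and 11.79. Spry2 and Rgs13 were undetected. Among MAP kinase genes 20 of 30 (66.7%) were detected, against the same 43.8%. Brightest were the kinase Map2k3 at 11.70 ± 0.24, Nras at 11.22 ± 0.09 and Map2k2 at 10.97 ± 0.21. The p38 kinase Mapk14 averaged 10.59 ± 0.17, whereas Braf was undetected. Map3k8 and Dusp4 were among the dimmest, and Map3k8 lay at 7.33 on replicate 3, against 4.83 and 5.26 on replicates 1 and 2.

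Genes of the NF-kB, NFAT and STAT families were detected for 24 of 28 members (85.7%), against 43.8% of all named genes. Rela, the activating subunit of NF-kB, lay at 10.91, 10.96 and 10.93, and Nfatc1 at 10.40, 10.35 and 10.66. The calcineurin subunits Ppp3r1 and Ppp3cb averaged 10.83 ± 0.09 and 10.69 ± 0.17, and the kinase Jak2 10.43 ± 0.35. Rel and Relb were dim, and Relb lay at 6.78 on replicate 3, against 5.61 and 5.17 on replicates 1 and 2. Nfatc2 was undetected by all 7 of its probes. Among 53 transcription factors of blood lineages 36 (67.9%) were detected, against the same 43.8%. After Gata2 came its cofactor Ldb1 at 12.41 ± 0.17, Bhlhe40 at 12.28 ± 0.15, Nfe2 at 12.20 ± 0.21 and the bHLH factor Tal1 at 11.71 ± 0.16. Mitf, a factor that mast cell development needs, was dim at 4.68, 5.56 and 5.38, near the lowest detected level. Runx3, Cebpe, Ikzf3, Klf4, Irf4, Irf8, Tfeb and Tfec were undetected.

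Immediate-early genes, which activation raises quickly in many cells, were detected for 12 of 25 members (48%), close to the 43.8% of all named genes, with 8 partly detected and 5 undetected. Ier3, a survival-linked early response gene, was the brightest at 13.83, 13.99 and 13.87. The antiproliferative gene Btg1 averaged 12.76 ± 0.26 and the RNA-decay factor Zfp36l1 12.27 ± 0.27. Junb averaged 8.85 ± 0.24 and Fosl2 8.87 ± 0.10. Fos and Myc, chosen after their values were seen, were detected on 2 and 1 of the 3 arrays at 4.72 ± 0.23 and 4.53 ± 0.23. The orphan nuclear receptors Nr4a1 and Nr4a3, and Atf3, Ier5 and Btg2, were undetected.

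Mediator genes were detected for 43 of 111 members (38.7%), below the share of all named genes. Of 51 cytokine and growth factor genes 18 were detected, 12 partly and 21 undetected. Mif, a cytokine stored ready-made in many cells, lay at 11.48 on replicate 3, against 13.31 and 13.28 on replicates 1 and 2. Osm, oncostatin M, lay at 10.53, 10.67 and 10.81, and Il4, a cytokine of type 2 immunity, at 10.24, 9.81 and 11.36. Both were bright in the absence of a labelled stimulus. Il16 averaged 10.43 ± 0.36 and Tgfb1 10.39 ± 0.23. Il13, another type 2 cytokine, was the dimmest detected member at 4.90, 4.69 and 5.98. Il2, Il3, Il5, Il7, Il9, Il10, Il11 and Il12a were undetected. Tnf, chosen after its values were seen, was detected on 1 of 3 arrays at 4.58 ± 0.39.

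Chemokines were detected for 12 of 33 members (36.4%), below the 43.8% of all named genes, with 15 undetected. Ccl9 lay at 11.21, 11.48 and 11.92. Ccl2, Ccl4 and Ccl3 attract monocytes and other leukocytes. Ccl2 and Ccl4 averaged 9.26 ± 0.27 and 8.75 ± 0.06, and Ccl3 lay at 9.19 on replicate 3, against 8.38 and 7.97 on replicates 1 and 2. Of the 12 detected chemokines 4 were over 2-fold higher on replicate 3 and 0 lower, against 4.2% and 3.97% of all detected genes. Ccl7, chosen after its values were seen, lay at 7.97 on replicate 3, against 6.14 and 6.02 on replicates 1 and 2. Ccl8, Ccl11, Ccl12, Ccl19, Ccl22, Ccl28, Cxcl1 and Cxcl2 were undetected.

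Lipid mediator genes were detected for 13 of 27 members (48.1%), close to the 43.8% of all named genes. The 2 brightest act at the start of leukotriene synthesis. Alox5ap, the protein that presents arachidonic acid to 5-lipoxygenase, lay at 14.29, 14.33 and 14.13. Alox5, 5-lipoxygenase itself, lay at 13.54, 13.64 and 13.15. Ltc4s, which makes leukotriene C4 and was chosen after its values were seen, lay at 8.74, 8.81 and 8.81, and Hpgds, which makes prostaglandin D2, at 8.41, 8.48 and 8.03. Tbxas1, thromboxane synthase, averaged 11.68 ± 0.15, and Pla2g7, which inactivates platelet-activating factor, lay at 11.64 on replicate 3, against 9.17 and 9.69 on replicates 1 and 2. Pla2g4a, the phospholipase that frees arachidonic acid, was undetected, as were Pla2g5, Pla2g2a, Alox12, Lta4h, Ptgs2, Ptges and Ptgis. Pla2g4a and Lta4h were each detected on 0 of the 17 complete arrays through 1 probe.

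Metabolic genes were detected for 183 of 227 members (80.6%), against 43.8% of all named genes. Of 27 glycolysis genes 19 were detected. Gapdh lay at 13.29, 13.26 and 12.44, Ldha at 13.17, 13.19 and 12.51 and Aldoa averaged 12.69 ± 0.28. The glucose transporter Slc2a1 lay at 10.77 on replicate 3, against 12.57 and 12.65 on replicates 1 and 2, and the pyruvate kinase Pkm at 11.79 on replicate 3, against 13.19 and 12.95 on replicates 1 and 2. Detected glycolysis genes were lower on replicate 3 by a median of -0.81 log2 units, with 6 of 19 over 2-fold lower and 0 higher. Of all detected genes 3.97% were over 2-fold lower on replicate 3 and 4.2% higher, with a median difference of -0.06. Pgam2, Pklr, Ldhb and Slc16a1 were undetected. The pentose phosphate pathway, which supplies NADPH, was detected for 7 of 8 genes, led by Taldo1 at 12.97, 13.02 and 13.21 and Tkt at 11.45, 11.30 and 11.63.

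Mitochondrial genes were detected for 27 of 32 members (84.4%) of the tricarboxylic acid cycle and 39 of 46 (84.8%) of the respiratory chain and ATP synthase. The share of all named genes was 43.8%. The ATP synthase subunits Atp5b and Atp5g3 averaged 13.29 ± 0.28 and 13.10 ± 0.19, and the cytochrome oxidase subunits Cox4i1 and Cox5b 12.74 ± 0.14 and 12.54 ± 0.20. Idh3g and Suclg1, enzymes of the cycle, averaged 11.60 ± 0.17 and 11.19 ± 0.06. Sdha and Ndufs1, subunits that every respiring cell needs, were undetected through 1 probe each and were detected on 0 of the 17 complete arrays. Cox4i2, Cox6a2, Ucp1 and Ucp3, forms known from other tissues, were also undetected.

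All 18 cholesterol synthesis genes were detected at least in part, 16 of them (88.9%) on 3 of 3 arrays, against 43.8% of all named genes. Sqle, squalene epoxidase, lay at 7.95 on replicate 3, against 10.69 and 10.55 on replicates 1 and 2, Fdps, which makes farnesyl diphosphate, at 8.36 on replicate 3, against 10.42 and 10.58 on replicates 1 and 2, and Msmo1, a sterol oxidase, at 9.11 on replicate 3, against 10.22 and 10.39 on replicates 1 and 2. Of the 16 detected members 8 were over 2-fold lower on replicate 3 and 0 higher, with a median difference of -0.97, against 3.97% lower and 4.2% higher among all detected genes. Fatty acid genes were detected for 20 of 30 members. The desaturase Fads1 lay at 11.81 on replicate 3, against 13.17 and 13.17 on replicates 1 and 2, the acyl-CoA synthetase Acsl5 averaged 11.92 ± 0.11 and Acly, which makes cytosolic acetyl-CoA, 11.50 ± 0.24. Acaca, Acacb, Fasn, Cpt1a, Ppara, Pparg, Fabp4 and Fabp5 were undetected, and Fasn was detected on 0 of the 17 complete arrays through 1 probe.

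Iron and haem genes were detected for 18 of 21 members (85.7%), against 43.8% of all named genes. Both ferritin chains were among the 30 brightest genes. Urod, an enzyme of haem synthesis, averaged 11.05 ± 0.08. The iron exporter Slc40a1, the hormone Hamp and the erythroid enzyme Alas2 were undetected. All 22 antioxidant and glutathione genes were detected. Of these, 4 were over 2-fold higher on replicate 3 and 0 lower, against 4.2% and 3.97% of all detected genes. After Gpx1 came Gpx4 at 13.32 ± 0.16, Prdx1 at 12.67 ± 0.06, Prdx4 at 12.09 ± 0.45 and Sod1 at 12.01 ± 0.27. Amino acid and one-carbon genes were detected for 15 of 23 members, led by the aminotransferase Got2 at 11.45 ± 0.11. Odc1, the first enzyme of polyamine synthesis, lay at 8.78 on replicate 3, against 9.89 and 10.16 on replicates 1 and 2, and the folate enzyme Mthfd2 at 8.50 on replicate 3, against 10.10 and 10.18 on replicates 1 and 2. Phgdh, Psph, Gpt2, Arg2, Sms, Slc7a1 and Slc1a5 were undetected.

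Cell cycle genes were detected for 28 of 33 members (84.8%), against 43.8% of all named genes. The cyclin Ccnd3 lay at 10.82 on replicate 3, against 11.74 and 11.85 on replicates 1 and 2 and the replication helicase subunit Mcm4 at 9.99 on replicate 3, against 11.23 and 11.29 on replicates 1 and 2. Cdkn1a, the inhibitor p21, ran the other way, at 12.18 on replicate 3, against 11.21 and 11.09 on replicates 1 and 2. Of the detected members 12 of 28 were over 2-fold lower on replicate 3 and 2 over 2-fold higher, with a median difference of -0.88, against 3.97% and 4.2% of all detected genes. The ribonucleotide reductase subunit Rrm2 lay at 4.84 on replicate 3, against 6.40 and 6.89 on replicates 1 and 2.

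**Figure D3:**
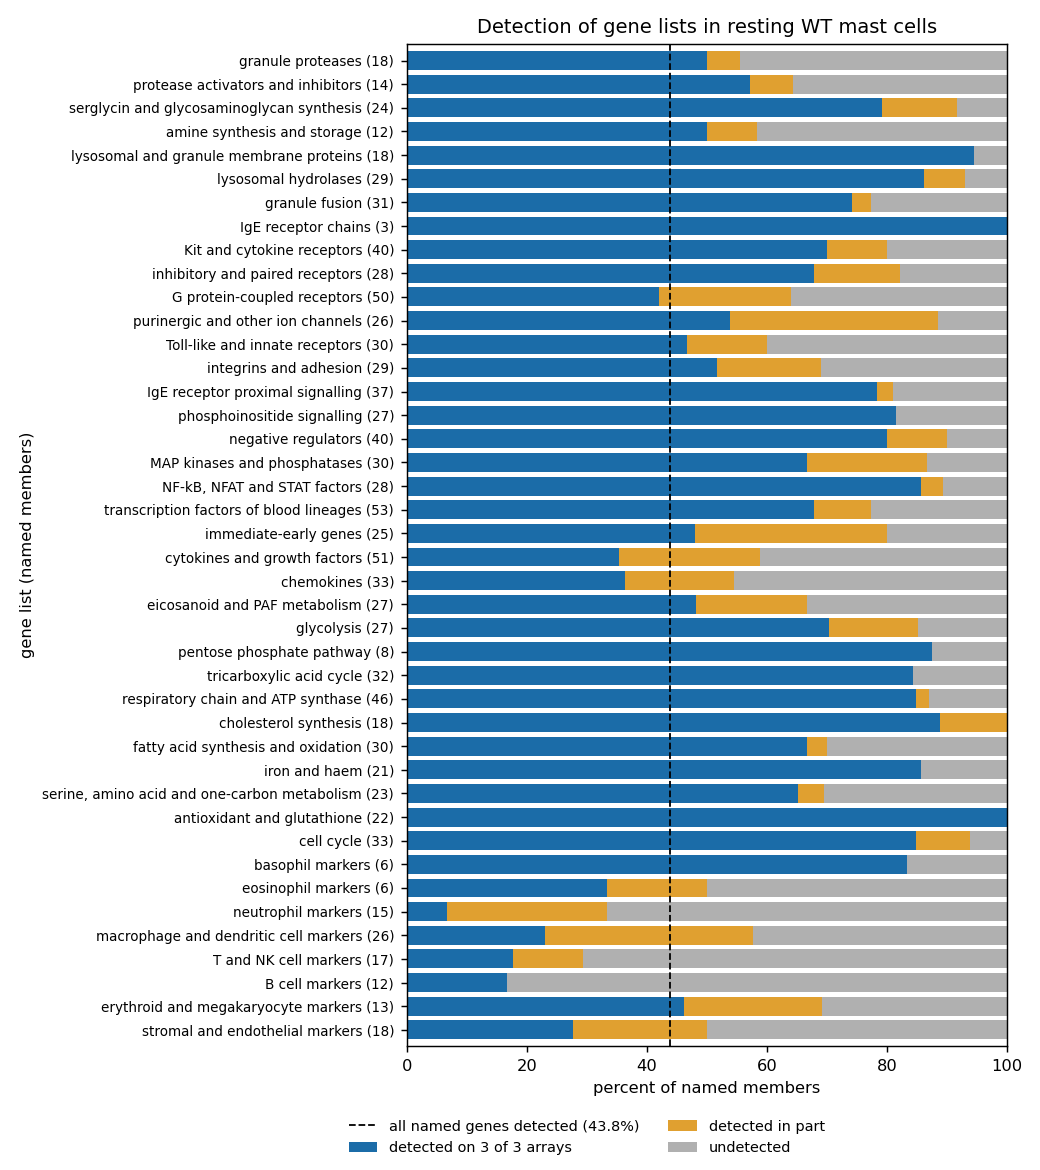
Percent of the named members of 42 gene lists (x axis; one bar per list, number of named members in parentheses) that were detected on 3 of 3 arrays, detected in part or undetected. The dashed line is the 43.8% of all named genes detected; antioxidant genes and IgE receptor chains reach 100%, while neutrophil, B cell and T and NK cell markers lie far below the line.

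Markers of other cell types were detected for 29 of 112 members (25.9%), a smaller share than the 43.8% of all named genes. Neutrophil markers were detected for 1 of 15, Prtn3 at 5.04 ± 0.30, and Elane, Mpo, Ltf, S100a8, S100a9, Mmp8, Cebpe and Csf3r were undetected. B cell markers were detected for 2 of 12, Cd79b and Vpreb1. Ms4a1, Pax5, Ebf1 and Cd22 were undetected, of which Cd22 was chosen after its values were seen. T and NK cell markers were detected for 3 of 17, Cd8b1, Prf1 and Il7r. Cd3d, Cd3e, Cd3g, Cd247, Cd2, Cd4, Cd5 and Cd8a were undetected. Eosinophil markers were detected for 2 of 6, and the granule genes Epx, Prg2 and Prg3 were undetected. Of the 2 detected, Ccr3 lay at 7.81 on replicate 3, against 5.50 and 5.96 on replicates 1 and 2. Il5ra lay at 6.63 on replicate 3, against 5.52 and 4.84 on replicates 1 and 2. Stromal and endothelial markers were detected for 5 of 18, Vwf, Pecam1, Vim, Tek and Cxcl12, with 3 in the brightest 10% of genes. Col1a1, Col1a2, Col3a1, Dcn and Lum were undetected. In RNA of a whole culture, fewer cells of a type and less RNA per cell cannot be told apart.

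Basophil markers differed from this pattern, with 5 of 6 (83.3%) detected, against 43.8% of all named genes. Cd200r3, a paired receptor, lay at 12.31, 12.41 and 12.81, and the steroid side-chain cleavage enzyme Cyp11a1 at 12.21, 11.99 and 11.73. These 2 genes were bright on every array, whereas the basophil proteases Prss34 and Mcpt8 moved in opposite directions on replicate 3, as given above. Itga2 was undetected. Cd200r3, Il3ra and Cyp11a1 are also known from mast cells, so the list does not separate the 2 cell types. Macrophage and dendritic cell markers were detected for 6 of 26. Lyz1 lay at 11.78 on replicate 3, against 10.25 and 9.97 on replicates 1 and 2, Lyz2 at 9.57 on replicate 3, against 7.89 and 8.08 on replicates 1 and 2 and Cx3cr1, the fractalkine receptor, at 9.36, 9.59 and 9.22. Itgam, Itgax, Mrc1, Msr1 and C1qb were undetected.

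Replicate 3 differed from the mean of replicates 1 and 2 by over 2-fold for 351 detected genes that were higher (4.2% of detected genes) and 332 that were lower (3.97%), against 12 detected genes over 2-fold apart between replicates 1 and 2. With arrays scaled to the same median in place of quantile normalization, the counts were 241 higher and 504 lower. One array against 2 has no replicate of its own, so no test was made. Of the 100 brightest genes 2 were over 2-fold apart on replicate 3, of the 1000 brightest 51, and of the ribosomal protein genes 0. Among all detected genes these shares were 4.2% higher and 3.97% lower. Brightness was the mean of the same 3 arrays, so a gene bright on replicate 3 alone ranked lower.

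Among genes detected on all 3 arrays, Mcpt4 and Ctsg were followed on replicate 3 by Pga5, the gene of a pepsinogen, at 13.04 on replicate 3, against 6.97 and 6.89 on replicates 1 and 2, and Smpdl3a, a phosphodiesterase related to acid sphingomyelinase, at 11.33 on replicate 3, against 5.07 and 5.45 on replicates 1 and 2. Next came Cma2, Tsc22d1, Hsd11b1, Slit2, Asb2 and Cd79b, which were higher by 5.24, 4.69, 4.67, 4.53, 3.78 and 3.69 log2 units. Hsd11b1 regenerates active glucocorticoid, and Cd79b is a chain of the B cell receptor. In the other direction, the embryonic globin Hbb-y lay at 5.66 on replicate 3, against 10.56 and 10.70 on replicates 1 and 2, and the protease inhibitor Serpinb2 at 5.11 on replicate 3, against 9.13 and 8.86 on replicates 1 and 2. Nrip3, Syn2 and the desaturase Scd1 followed, with differences of -3.77, -3.74 and -3.53 log2 units on replicate 3. Prss34, Cdca7, Smarca1, Ppp1r3g and Sult1a1 completed the 10 genes lowest on replicate 3 relative to the other arrays. Among these, Cdca7 is known as a target of the growth regulator Myc.

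The 4 MHC class II genes of the macrophage and dendritic cell list, singled out after their values were seen, were also higher on replicate 3, by 3.21 to 6.39 log2 units. Cd74, the invariant chain of MHC class II, lay at 10.86 on replicate 3, against 4.60 and 4.35 on replicates 1 and 2. H2-Aa lay at 10.20 on replicate 3, against 4.47 and 4.31 on replicates 1 and 2, H2-Eb1 at 9.39 on replicate 3, against 4.38 and 4.29 on replicates 1 and 2 and H2-Ab1 at 11.07 on replicate 3, against 8.08 and 7.63 on replicates 1 and 2. On replicates 1 and 2 the first 3 were at the floor, and all 4 were above it on replicate 3. Signal was also summed by list after the normalization offset of 16 was subtracted, so that undetected genes still add a little. For the 26 macrophage and dendritic cell markers the sum was 10980 on replicate 3, against 2638 and 2501 on replicates 1 and 2. Of these markers 6 were detected, 9 partly detected and 11 undetected, the last including Itgam, Itgax, Mrc1, Msr1 and C1qb. The members with the highest levels on replicate 3 were Lyz1, H2-Ab1, Cd74 and H2-Aa, and the detected members over 2-fold higher there were Lyz1, Lyz2 and H2-Ab1. The 12 B cell markers summed to 551.5 on replicate 3, against 122.7 and 95.8 on replicates 1 and 2, with 10 of them undetected, including Ms4a1, Pax5 and Ebf1. The rise of this sum was mainly that of Cd79b, at 8.93 on replicate 3, against 5.37 and 5.10 on replicates 1 and 2. Cd79b was the 1 detected member over 2-fold higher there. The 6 eosinophil markers summed to 307.5 on replicate 3, against 80.91 and 73.41 on replicates 1 and 2. Their 2 detected members, Ccr3 and Il5ra, were over 2-fold higher there, whereas Epx, Prg2 and Prg3 were undetected. The 13 erythroid and megakaryocyte markers summed to 3839 on replicate 3, against 7347 and 7855 on replicates 1 and 2. This sum follows its brightest member, Itga2b, at 11.22 on replicate 3, against 12.34 and 12.47 on replicates 1 and 2. Of the 13 members 6 were detected and 4 were undetected. Those over 2-fold lower on replicate 3 were the 3 genes Itga2b, Epor and the globin Hba-a1. The beta globins Hbb-bs and Hbb-bt, outside the list and chosen after their values were seen, were bright on replicates 1 and 2. Hbb-bs lay at 10.52 on replicate 3, against 12.14 and 12.27 on replicates 1 and 2. Hbb-bt lay at 9.54 on replicate 3, against 11.83 and 11.84 on replicates 1 and 2. The summed signal of the 6 mast cell markers was 94680 on replicate 3, against 98560 and 99740 on replicates 1 and 2. The part of other cells in the difference of replicate 3 was not tested.

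**Figure D4:**
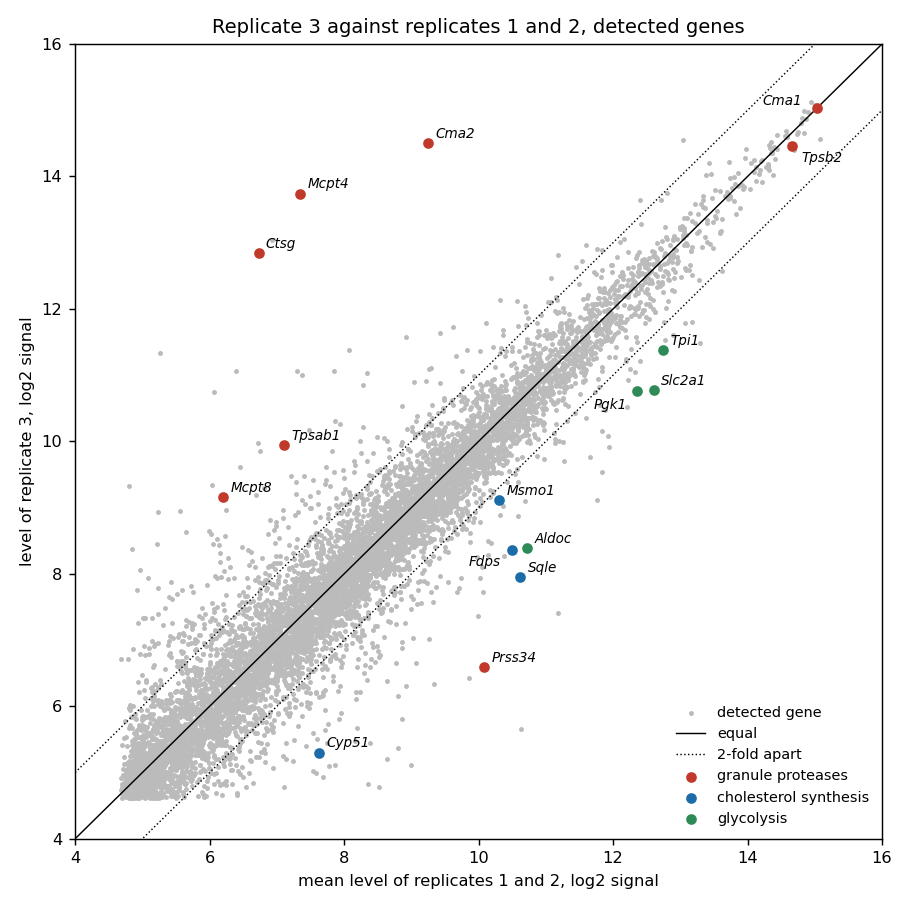
Level on replicate 3 (y axis, log2 signal) against the mean level of replicates 1 and 2 (x axis, log2 signal) for the 8353 detected genes; dotted lines are 2-fold apart. Mcpt4, Ctsg and Cma2 lie far above the upper line, and Prss34 and named genes of cholesterol synthesis and glycolysis below the lower one, while Cma1 and Tpsb2 lie near the line of equality.

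Promoters of detected and undetected genes differed in composition. The RefSeq table (GRCm38.p6) held a promoter of the same 300-base window for 15237 of the 19057 named genes. The 1574 promoters of the brightest 10% of genes had a median of 21 CpG and 60.7% G and C, and the 6443 promoters of undetected genes 6 CpG and 52%. The GATA core GATAA, on either strand, was found in 18.2% of the promoters of the brightest genes (Wilson 95% interval 16.4 to 20.2), in 14.6% (13.7 to 15.6) of those of other detected genes and in 28.4% (27.3 to 29.5) of those of undetected genes. It was found in 25.8% of all 27025 promoters of the table. TATAAA was found in 8.01% (6.76 to 9.45) of the brightest, 6.42% (5.79 to 7.11) of the other detected and 18.7% (17.8 to 19.7) of the undetected, and in 14.2% of all promoters. CCGGAAG, the core of ETS factor sites, ran the other way, at 23.3% (21.2 to 25.4), 20.2% (19.1 to 21.3) and 4.98% (4.48 to 5.54), and at 9.12% in all promoters. CCGGAAG was searched with its reverse complement CTTCCGG. In the 4 printed promoters no match of one motif overlapped a match of another, and intervals cover counting error only.

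Promoters were also counted by gene list. Among granule proteases with a promoter there, 8 of 14 (57.1%) held GATAA, 4 (28.6%) held TATAAA and 0 held CCGGAAG, with a median of 2.5 CpG. The 35 promoters of respiratory chain genes had a median of 20 CpG, with GATAA in 22.9% and TATAAA in 2.86%. Cytokine genes, mostly not detected, had TATAAA in 41% of 39 promoters and GATAA in 23.1%. GATAA and TATAAA are short and rich in A and T, and no count here was adjusted for the G and C content of the promoters.

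**Figure D5:**
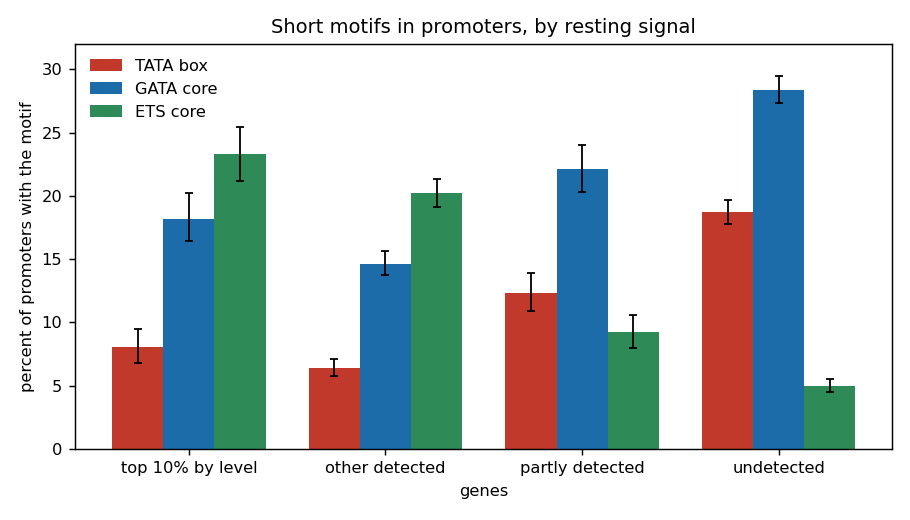
Percent of promoters (y axis) holding the TATA box TATAAA, the GATA core GATAA or the ETS core CCGGAAG, by signal class of the gene (x axis); bars are shares and error bars Wilson 95% intervals. The ETS core is found in 23.3% of the brightest genes and 4.98% of undetected genes, while both other motifs are more frequent among undetected genes.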

How the data were processed

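Total RNA of the cells was extracted with a QIAGEN RNeasy kit, labelled with biotin and hybridised to Illumina mouse bead arrays, per the labels' protocols. The intensity values were deposited by the authors before normalization, each followed by a column headed as a detection p-value. Such a value gives for each probe how its intensity stood against negative controls, which the headers themselves do not state. The array background was still in the intensities, whose lowest value was 75.5, 73.4 and 71.4 on replicates 1, 2 and 3. The authors also deposited a log2 table; its correlation with the levels used here was 0.992 across probes on each of the 3 arrays. The scanner software and its version are not given in the sources used here.

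From the intensity values of the 17 complete arrays, log2 levels were computed in R 4.3.3 with the neqc function of limma (version 3.58.1), which corrects background and normalizes by quantiles; its negative controls were taken from the detection p-values and its offset was 16. The 3 WT unstimulated arrays were then kept. Of 45281 probes 34885 carried 1 gene symbol, 18 several and 10378 were not in the gene table; 34807 matched GRCm38.p6 gene identifiers. Each gene was given by its probe with the highest mean level. There was 1 group and no contrast, so no test was run: values are levels, SD over 3 arrays, ranks and counts. The steps were tested on simulated data.

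The genes and the 43 gene lists were chosen with earlier results of these data known. Named were the 6 markers, the 30 brightest genes (ribosomal and clone names counted only), up to 6 brightest, 3 dimmest detected and 8 undetected members of each list, the 10 largest differences of replicate 3 in each direction, and the 5 genes whose probes differed most; the text gives some of these, and others are marked as chosen after their values were seen. Alternatives were no background correction, median scaling, the authors' log2 values, the mean of a gene's probes, normalization on 3 arrays, other detection thresholds, a filter on dim genes, leaving out each array, and narrower promoter bands. Probes outside the gene table were only counted: 1923 (18.5%) were detected on 3 of 3 arrays.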

Additional observations from a re-analysis of the deposited data

How the results depend on the processing

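The number of detected genes stayed between 7727 (detection p under 0.01) and 9099 (detected on at least 2 of 3 arrays), against 8353, and lay between 8558 and 8671 when 1 array was left out. The median percentile of the 6 markers, 99.8, was 99.3 with the mean of a gene's probes, 99.7 with median scaling and 99.5 among genes detected on at least 3 complete arrays, and ranged between 99.7 and 99.8 with 1 array left out. Single marker percentiles moved most for Kit, at 95.4 with the mean of probes against 99.8, and for Hdc, at 95.4 with the mean of probes and 93.8 with the filter against 96.6; Ms4a2 lay at 98.8 and 96.2 against 97.9, and Cpa3, Fcer1a and Gata2 at 99.5 or above in both. Replicate 3 decided the spread between arrays: the median SD of 0.21 was 0.11 without it, and ranged between 0.11 and 0.21 over the 3 arrays left out. Without background correction that spread was 0.14, the spread between probes of a gene 0.70 against 1.06, and replicate 3 had 165 genes over 2-fold higher and 140 lower. Median scaling gave 241 higher and 504 lower on replicate 3, against 351 and 332. In the brightest 5% of genes, 10.6% of promoters held TATAAA and 20.2% CCGGAAG, against 8.01% and 23.3% in the brightest 10%. Detected eosinophil and neutrophil markers numbered 1 and 0 at a detection p under 0.01, against 2 and 1; the other lists stayed within 1.5 times their count. The cause of these shifts was not tested, except that stricter thresholds call fewer genes by construction. No paired analysis was possible because the results describe 1 group and come from no test. Genes near the floor, at about 4.62, cannot be ordered by level.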

Other observations

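Some genes best known from other cell types gave a clear signal in these cells. Foxp3, the transcription factor of regulatory T cells, lay at 11.07, 10.84 and 10.25 on replicates 1, 2 and 3 by 1 probe, while its other 3 probes were undetected at mean levels of 4.32 to 4.38. Cd8b1, a chain of the T cell coreceptor CD8, lay at 11.99, 11.94 and 11.80 by 1 of 3 probes, while its other 2 probes, Cd8a and the Cd3 chains were undetected. In both cases the gene was called detected through a single probe. These genes were chosen after their values were seen, and whether those probes report the named transcript was not tested.

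Several platelet and vessel genes were also detected. Vwf, the von Willebrand factor gene, lay at 10.85, 10.89 and 10.26, and Tek, the angiopoietin receptor of endothelium, at 7.80 on replicate 3, against 9.30 and 9.43 on replicates 1 and 2. Over the same arrays the platelet genes Pf4 and Ppbp were detected on 1 of 3 arrays each, and the endothelial gene Cdh5 was undetected. These genes too were chosen after their values were seen.

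Cfp, the complement regulator properdin, and Tgm2, tissue transglutaminase, were the 2 of the 100 brightest genes that differed by over 2-fold on replicate 3. Cfp lay at 14.55 on replicate 3, against 12.99 and 13.10 on replicates 1 and 2. Tgm2 ran the other way, at 12.57 on replicate 3, against 13.67 and 13.56 on replicates 1 and 2.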
